A study of Mus musculus with 12 samples.

Results

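The genes described here code for the translation initiation factors (eIFs) and elongation factors (eEFs) of the mouse, the proteins that load messenger RNA on ribosomes and then drive the ribosome along it. They were taken by name from the count table, as all gene symbols that begin with Eif1 to Eif6, Eef1 or Eef2. The Y-linked Eif2s3y and the eIF2 kinases, whose symbols begin with Eif2ak, were left out of the family, since the kinases act on eIF2 and are no part of it. This gave 59 of the 24421 genes of the table, and 56 of them had enough reads for a test. The libraries came from E14 mouse embryonic stem cells of wild-type genotype that all expressed dCas_Alkbh5, named for a dead Cas protein and the RNA m6A demethylase Alkbh5. All cells grew on gelatin with FBS/LIF medium, received a guide RNA plasmid (lenti-sgRNA-BSD), passed 3 days of selection in 8 µg/mL blasticidin, and spent the next 5 days in 200 nM of the mTOR kinase inhibitor INK128, which brings such cells into a paused state. There were 4 libraries with Mycn-gRNA3, 4 with Mycn-gRNA2 and 4 with a non-targeting guide (NT), so that the fusion and the mTOR inhibitor were common to all groups. Mycn, the gene that both guides are named for, codes for a transcription factor of the MYC family that drives growth. Whether replicates were grown apart is not said in the labels, and the spread behind each p-value may therefore be technical.

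Initiation begins when eIF2 carries the initiator tRNA to the small ribosomal subunit, helped by eIF1, eIF1A, eIF3 and eIF5, while eIF4F, made of the cap-binding protein eIF4E, the scaffold eIF4G and the helicase eIF4A, brings in the mRNA. The guanine nucleotide exchange factor eIF2B recharges eIF2 after each round, and eEF1A and eEF2 then serve each step of elongation. Inhibition of mTOR is known to slow this machine in several places, since unphosphorylated 4E-BPs hold eIF4E away from eIF4G and active eEF2 kinase halts eEF2, and to repress above all the mRNAs with a terminal oligopyrimidine tract (TOP mRNAs), which include many elongation factor transcripts. The libraries hold polyA RNA, so they report transcript levels and neither translation nor phosphorylation.

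Levels are given on 2 scales. Counts per 1000000 reads (CPM) were scaled by TMM factors over all endogenous genes and give a gene's level relative to the rest of the transcriptome. Reads per 1000 reads of the ERCC spike-in RNAs give its level against synthetic RNA added in the same amount to RNA from 200000 cells. On that second scale a difference in the number of cells of a type and a difference in RNA per cell cannot be told apart. Libraries held 17248564 to 33819855 endogenous reads. Endogenous reads per ERCC read averaged 90.2 ± 5.13 with Mycn-gRNA3, 81.9 ± 12.4 with Mycn-gRNA2 and 65.5 ± 4.66 with NT (SD, n = 4 each), and the median gene stood 0.39 higher (log2) with both guides per ERCC read. Mycn itself stood at 267, 289, 292 and 257 CPM with Mycn-gRNA3, 205, 223, 254 and 262 with Mycn-gRNA2, and 141, 146, 139.8 and 136 with NT, all guide libraries above all NT libraries. All 10 embryonic stem cell markers looked at were detected, and their summed CPM was 4391 to 4904 with Mycn-gRNA3, 4109 to 4748 with Mycn-gRNA2 and 5148 to 5619 with NT, and 5 of the 10 were called lower with both guides and none higher. Of 10 primitive endoderm markers 7 were called higher, with summed CPM of 376 to 454 with Mycn-gRNA3, 354 to 443 with Mycn-gRNA2 and 296 to 375 with NT. Sparc and Lama1, which were not called, made up most of that sum, and Gata4 was not called either. Among those called, Sox17, Gata6, Foxa2 and Pdgfra were scarce, at 3.24 CPM or less in every library. The shares over all genes tested were 14.9% called higher and 13% lower. Of the fibroblast or feeder markers 5 were called higher and 1 lower. Fn1, the 1 called lower, made up nearly all of their summed CPM, which was 1468 to 1908 with Mycn-gRNA3, 1655 to 2009 with Mycn-gRNA2 and 1954 to 2337 with NT. The 5 called higher (Acta2, Col1a1, Col3a1, Col5a2 and Thy1) were scarce, with Acta2 at up to 4.74 CPM with Mycn-gRNA3, 2.56 to 4.17 CPM with Mycn-gRNA2 and 0 to 0.0897 CPM with NT, all guide libraries above all NT libraries. The defining Postn and Lum stayed under 0.1 CPM in every library, and Dcn was at 0.0807 to 0.253 CPM with Mycn-gRNA3, 0.113 to 0.130 CPM with Mycn-gRNA2 and 0 to 0.0791 CPM with NT. Of 7 trophoblast markers tested 2 were called higher, with Elf5 near 0 and summed CPM of 53.2 to 55.7 with Mycn-gRNA3, 49.7 to 59.6 with Mycn-gRNA2 and 38.7 to 55.7 with NT. The part of these marker shifts in the results for the translation factors was not tested. Y-linked genes summed to 46.1 to 63.5 CPM with Mycn-gRNA3, 32.4 to 83.7 CPM with Mycn-gRNA2 and 0.045 to 0.18 CPM with NT, so the NT cells differ from the cells of both guides in more than the guide, and in each comparison with NT that difference and the guides cannot be told apart.

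Summed, the translation factors held shares of the transcriptome that overlapped between the groups, while single members differed within them. The sum mainly follows the most abundant genes, as the eEF1 genes alone held 1.51 percent of endogenous reads with NT. The summed reads were 3.41 ± 0.105 with Mycn-gRNA3, 3.25 ± 0.171 with Mycn-gRNA2 and 3.28 ± 0.129 with NT (SD, n = 4 each), in percent of endogenous reads, and 1 of the 8 guide libraries lay above all NT libraries. Relative to the transcriptome, 10 of the 56 tested members were called higher with both guides against NT, where 14.9% of all genes tested were, and 3 were called lower, where 13% of all genes were (edgeR's quasi-likelihood test on 12 libraries, Benjamini-Hochberg adjusted p under 0.05 over 14497 genes). The members' shares were 17.9% higher and 5.36% lower, and the other 43 were not called. The counts turned on single libraries, with 19 called higher and 5 lower without Mycn-gRNA2 replicate 1 and 5 called higher and 2 lower without NT replicate 4. The calls over all genes moved too. Without Mycn-gRNA2 replicate 1, 3206 of 14631 genes were called higher and 2951 lower, and without NT replicate 4, 1627 of 14633 higher and 1308 lower. The median log2 fold change of the 56 was 0.081, against −0.0027 for all genes tested. The members called higher were Eef1a2, Eef2k, Eif4e, Eef1d, Eif2b1, Eef1b2, Eif3l, Eif3i, Eif2b2 and Eif3f, and those called lower were Eif4ebp3, Eif4a2 and Eif4g3. In 5 members, Eef1a2, Eef2k, Eif4e, Eif2b1 and Eif3l, every guide library lay above every NT library, which is 8.93% of the members and 8.55% of all genes. No member had all guide libraries below NT, where 6.87% of all genes did.

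Per ERCC read the family moved up together with the bulk of the transcriptome. Summed over the members, there were 3079 ± 231 with Mycn-gRNA3, 2670.4 ± 508 with Mycn-gRNA2 and 2151 ± 239 with NT (SD, n = 4 each), in reads per 1000 ERCC reads, and 7 of 8 guide libraries lay above all NT libraries. With both guides 48 of 56 members (85.7%) were called higher, where 56.4% of all genes were, and none was called lower, where 0.931% of all genes were (edgeR; at an unadjusted p under 0.05, 50 members differed, and DESeq2 called 49 higher and none lower). The members' median log2 fold change was 0.47, against 0.39 for all genes, and 41 of the 56 lay above that 0.39. Every guide library lay above every NT library in 8 members (14.3%, and 11.5% of all genes) and below every NT library in none (0.235% of all genes). The 8 members not called on this scale were Eif4ebp3, Eif4a2, Eif5b, Eif4g3, Eif2d, Eif4a1, Eif5a2 and Eif4e3, so all 3 members that were called lower relative to the transcriptome are among them.

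**Figure D1:**
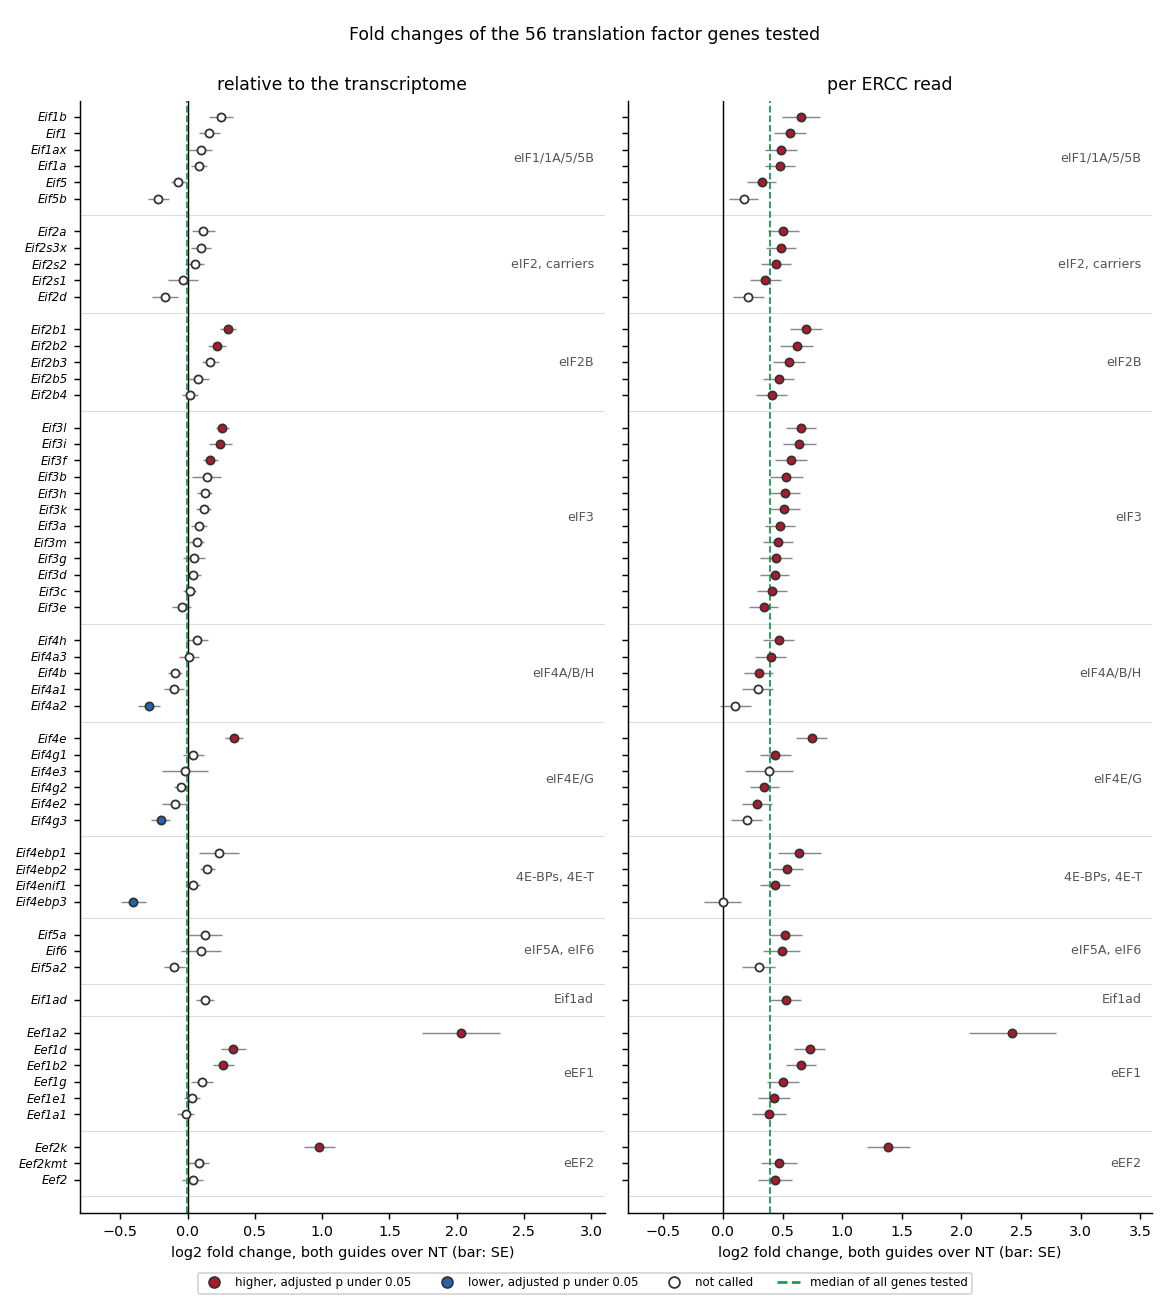
Log2 fold changes of the 56 tested translation factor genes, both Mycn guides over NT, by factor class; left relative to the transcriptome, right per ERCC read, with bars for the SE and filled points for genes called by edgeR. On the left 10 genes are called higher and 3 lower around a median of all genes near 0 (dashed); on the right 48 are called higher and the median of all genes is 0.39.

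Of the elongation factors, the eEF2 kinase gene showed the strongest change that rests on many reads. Eef2k, at chr7:120842831-120907219 of mm10, codes for the kinase that phosphorylates and so inactivates eEF2; mTOR signalling is known to keep this kinase off. It had 49.1, 42.4, 52.1 and 45.3 CPM with Mycn-gRNA3, 36.5, 28.1, 39.0 and 46.4 with Mycn-gRNA2, and 21.4, 24.1, 19.8 and 20.3 with NT, with replicates given in the order 1 to 4 here and below. All 8 guide libraries lay above the 4 NT libraries, and the lowest of them, Mycn-gRNA2 replicate 2, exceeded the highest NT library. The log2 fold change was 0.98 (SE 0.114, edgeR adjusted p = 4.64e-05) with both guides, 1.14 (SE 0.127, edgeR adjusted p = 4.23e-05) with Mycn-gRNA3 and 0.81 (SE 0.128, edgeR adjusted p = 0.000773) with Mycn-gRNA2. Per ERCC read it was 1.39 (SE 0.181, edgeR adjusted p = 1.36e-06). Its substrate Eef2, the translocase that moves the ribosome by a codon, stood at 3870.2, 3640.1, 3827 and 3683 CPM with Mycn-gRNA3, 2569, 3143, 3199 and 3697 with Mycn-gRNA2, and 3404, 3552, 3276 and 3176 with NT. The groups overlapped, Mycn-gRNA2 replicate 1 being the lowest of all libraries, and the log2 fold change was 0.038 (SE 0.0779, edgeR adjusted p = 0.754) relative to the transcriptome and 0.44 (SE 0.140, edgeR adjusted p = 0.00933) per ERCC read. Eef2kmt, the methyltransferase that modifies eEF2, stood at a relative 0.081 (SE 0.0799, edgeR adjusted p = 0.481); its exons share 21.8% of their bases with Alg1 on the other strand, and no source used here gives the strand setting of the counting. The ratio of Eef2k to Eef2 reads does not depend on any scaling. In reads of Eef2k per 100 reads of Eef2 it was 1.27, 1.16, 1.36 and 1.23 with Mycn-gRNA3, 1.42, 0.892, 1.22 and 1.25 with Mycn-gRNA2, and 0.628, 0.678, 0.605 and 0.638 with NT. It was higher in each guide library than in any NT library; this pair was chosen after the values of both genes had been seen.

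The promoters of Eef2k and Eif4e, and that of Eif3f, hold the hexamer CACGTG, the palindromic E-box that MYC-family dimers are known to bind and that reads the same on both strands. In the RefSeq windows of 250 bases before to 50 after a start (GRCm38.p6, the assembly behind mm10), it was found in 12 of the 45 members with a window (26.7%), against 2187 of 27025 genes (8.09%). It was in 3 of the 8 members with a window called higher relative to the transcriptome, in 9 of the 34 that were tested and not called, and in 0 of the 2 called lower. The share of all genes, here and for the pyrimidine run below, counts every gene with a window, tested or not. It is therefore not a share of expressed genes alone. The match is a description of letters and marks no binding site. The stretches around it are shown for the 3 members called higher and, for comparison, for Eef2, which holds the hexamer and was not called on that scale; each is upstream of a RefSeq start, written 5′ to 3′ with the hexamer in capitals.
Eef2k, chr7:120842770-120842830, plus strand: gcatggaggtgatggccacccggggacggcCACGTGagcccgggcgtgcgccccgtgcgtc
Eif4e distal, chr3:138527018-138527075, plus strand: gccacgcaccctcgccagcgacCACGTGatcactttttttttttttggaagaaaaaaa
Eif4e proximal, chr3:138527174-138527239, plus strand: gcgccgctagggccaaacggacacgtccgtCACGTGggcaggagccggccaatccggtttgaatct
Eif3f, chr7:108934317-108934382, plus strand: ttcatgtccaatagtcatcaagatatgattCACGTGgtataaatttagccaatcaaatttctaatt
Eef2, chr10:81176558-81176623, plus strand: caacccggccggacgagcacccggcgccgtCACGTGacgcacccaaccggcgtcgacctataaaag
The Eif4e stretches lie before the second of its starts, between the first and second exon of the gene model behind the counts. The hexamer begins 31 bases before the start in Eef2k, 228 and 64 bases before it in Eif4e, 68 in Eif3f and 43 in Eef2. A pyrimidine run at the start base (C followed by at least 4 bases that are C or T, on the gene's strand), the sequence pattern of TOP mRNAs, was found at the annotated start of 2 of the 45 members, Eif2s3x and Eif3f (4.44%), against 3.01% of all genes; annotated starts can lie some bases away from the ones that cells use.

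The eEF1 genes code for the complex that brings charged tRNAs to the ribosome. Its main carrier, Eef1a1, was the most abundant member, with 12693, 12855, 13933 and 13198 CPM with Mycn-gRNA3, 13882, 11204, 13020.4 and 13784 with Mycn-gRNA2, and 13039.5, 13700.2, 12647 and 13462 with NT, and the groups overlapped, at −0.016 (SE 0.0646, edgeR adjusted p = 0.882) relative to the transcriptome. Of the exchange factor subunits that recharge eEF1A, 2 were called higher. Eef1d, the delta subunit, had 174, 205, 226 and 213 CPM with Mycn-gRNA3, 151, 218, 211 and 196 with Mycn-gRNA2, and 165, 162, 154 and 148 with NT. All guide libraries but Mycn-gRNA2 replicate 1 lay above NT, and the log2 fold change was 0.34 (SE 0.0940, edgeR adjusted p = 0.0159). Eef1b2, a catalytic subunit of the same exchange complex, had 829.6, 878, 826 and 868 CPM with Mycn-gRNA3, 642, 899.8, 788 and 806 with Mycn-gRNA2, and 669, 706, 723 and 619 with NT. Here too Mycn-gRNA2 replicate 1 alone lay within the NT range, and the log2 fold change was 0.27 (SE 0.0773, edgeR adjusted p = 0.0201). Eef1g, the gamma subunit, was not called at 0.11 (SE 0.0809, edgeR adjusted p = 0.344), although 7 of 8 guide libraries lay above NT; without Mycn-gRNA2 replicate 1 it was called, at 0.16 (edgeR adjusted p = 0.0253). Eef1e1, an accessory protein of the tRNA synthetase complex, stood at 0.035 (SE 0.0591, edgeR adjusted p = 0.697). Both called exchange subunits were called with Mycn-gRNA3 alone, at 0.38 (edgeR adjusted p = 0.0188) for Eef1d and 0.32 (edgeR adjusted p = 0.0151) for Eef1b2, and not with Mycn-gRNA2, at 0.30 (edgeR adjusted p = 0.0689) and 0.21 (edgeR adjusted p = 0.126). Leaving out NT replicate 4 ended both calls, as did leaving out NT replicate 3 for Eef1d and NT replicate 1 for Eef1b2.

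Eef1a2, the eEF1A form of neurons and muscle, was nearly silent in all libraries. It had 11, 19, 21 and 18 reads with Mycn-gRNA3, 13, 8, 16 and 15 with Mycn-gRNA2, and 5, 3, 3 and 2 with NT, in all 121 reads over 8 guide libraries and 13 over the 4 NT libraries. Each guide library held more Eef1a2 reads than any NT library. The log2 fold change, 2.03 (SE 0.288, edgeR adjusted p = 0.000207), was the largest among the members, on a level that stayed under 0.77 CPM in every library. Against the other carrier it was 0.0035 to 0.00545 reads per 100 Eef1a1 reads with Mycn-gRNA3, 0.00407 to 0.00513 with Mycn-gRNA2 and 0.000653 to 0.00173 with NT. Among the neural markers, 5 of 8 were called higher and 1 lower, with summed CPM of 224 to 287 with Mycn-gRNA3, 185 to 311 with Mycn-gRNA2 and 221 to 267 with NT; their part in the Eef1a2 result was not tested.

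**Figure D2:**
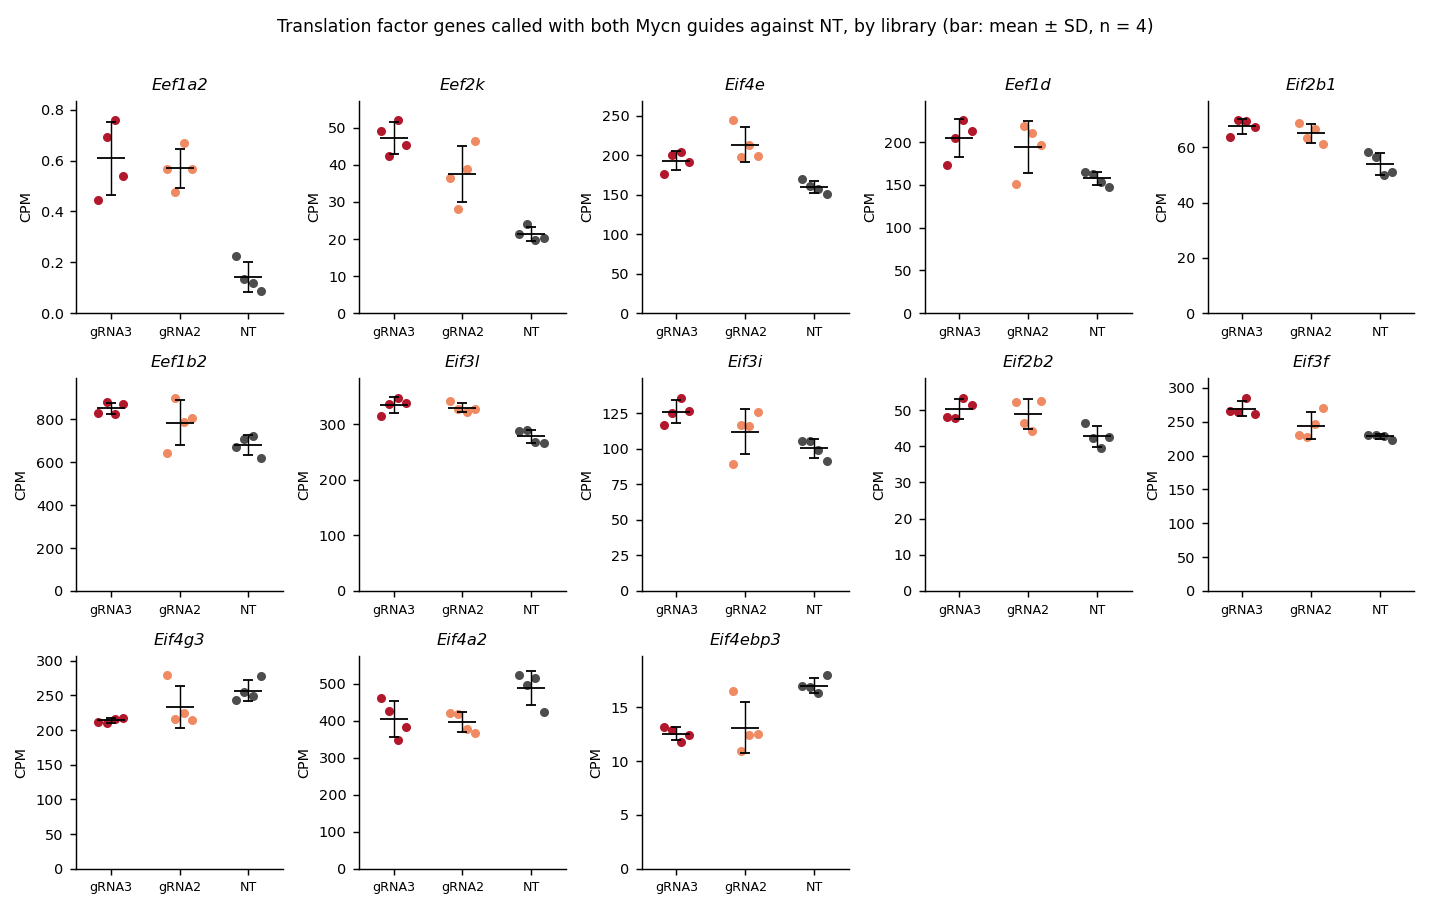
Levels in CPM (vertical axes from 0) of the 13 translation factor genes called with both guides, in each of 4 libraries a group from replicate 1 (left) to 4 (right); black bars are the mean ± SD. Eef1a2, Eef2k, Eif4e, Eif2b1 and Eif3l have no guide library within the NT range, whereas Mycn-gRNA2 replicate 1 falls within or below it for Eef1d, Eef1b2, Eif3i and Eif3f and within or above it for Eif4g3 and Eif4ebp3.

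Among the cap-binding proteins, only Eif4e was called, and it was higher. Eif4e, at chr3:138526191-138557599 of mm10, codes for the subunit of eIF4F that grips the cap and that the 4E-BPs hold back. It had 176, 200.2, 204 and 192 CPM with Mycn-gRNA3, 245, 198, 212 and 199 with Mycn-gRNA2, and 170.2, 161, 158 and 151 with NT. All guide libraries were above all NT libraries, and Mycn-gRNA2 replicate 1 was the highest. The log2 fold change was 0.34 (SE 0.0670, edgeR adjusted p = 0.00202) with both guides, 0.27 (edgeR adjusted p = 0.0177) with Mycn-gRNA3 and 0.42 (edgeR adjusted p = 0.00235) with Mycn-gRNA2, and per ERCC read it was 0.74 (SE 0.131, edgeR adjusted p = 2.67e-05). Its cap-binding relative Eif4e2, which is known to repress rather than start translation, was not called at −0.096 (SE 0.0911, edgeR adjusted p = 0.461). In reads per 100 reads of Eif4e, it was 69.3, 71.9, 70.3 and 75.7 with Mycn-gRNA3, 45.6, 87.2, 68.4 and 67.1 with Mycn-gRNA2, and 86.2, 97.6, 91.9 and 98.3 with NT. The guide libraries were below the NT libraries in that ratio except for Mycn-gRNA2 replicate 2. Eif4e3, another cap-binding form, stood at −0.021 (SE 0.169, edgeR adjusted p = 0.942) on few reads, 481 with the guides and 223 with NT, and the oocyte form Eif4e1b had 48 reads over the guide libraries and 11 over the NT libraries and was not tested.

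The scaffold genes of eIF4F showed no common direction. Eif4g1, the main scaffold that joins eIF4E, eIF4A and eIF3, stood at 952, 1024, 1084 and 1029.7 CPM with Mycn-gRNA3, 771, 1014, 1063 and 1045 with Mycn-gRNA2, and 989, 984, 963 and 942 with NT. In all, 6 guide libraries exceeded NT and Mycn-gRNA2 replicate 1 was far below it, at a log2 difference of 0.041 (SE 0.0768, edgeR adjusted p = 0.724). Eif4g3, a second scaffold, had 212, 210.3, 216 and 218 CPM with Mycn-gRNA3, 279, 215, 225 and 215 with Mycn-gRNA2, and 244, 256, 249 and 278 with NT. It lay under every NT library in 7 of 8 guide libraries, and Mycn-gRNA2 replicate 1 was above them. The log2 fold change was −0.20 (SE 0.0693, edgeR adjusted p = 0.0453), a call that 11 of the 12 fits with a library left out did not keep; without Mycn-gRNA2 replicate 1 it was −0.25 (edgeR adjusted p = 0.000416). Reads of Eif4g3 per 100 reads of Eif4g1 were 22.3, 20.5, 19.9 and 21.2 with Mycn-gRNA3, 36.2, 21.2, 21.2 and 20.5 with Mycn-gRNA2, and 24.6, 26.0, 25.9 and 29.6 with NT, lower in the guide libraries other than Mycn-gRNA2 replicate 1 than in all of NT. Eif4g2, which lacks the eIF4E-binding part and serves cap-independent starts, was not called, at −0.046 (SE 0.0524, edgeR adjusted p = 0.542).

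The 4E-binding proteins are the switch through which mTOR acts on eIF4E. Eif4ebp3, the least abundant of the 3 binding protein genes, had 13.2, 12.9, 11.8 and 12.4 CPM with Mycn-gRNA3, 16.5, 11.0, 12.5 and 12.5 with Mycn-gRNA2, and 17.0, 16.9, 16.3 and 18.0 with NT. It was lower in 7 of 8 guide libraries than in all NT libraries, Mycn-gRNA2 replicate 1 lying within the NT range. The log2 fold change was −0.41 (SE 0.0923, edgeR adjusted p = 0.00525) relative to the transcriptome, called with each guide, and −0.0030 (SE 0.154, edgeR adjusted p = 0.987) per ERCC read. In reads per 1000 ERCC reads it had 1.26, 1.20, 1.12 and 1.02 reads per 1000 ERCC reads with Mycn-gRNA3, 1.37, 0.700, 1.03 and 1.20 with Mycn-gRNA2, and 1.01, 1.24, 1.07 and 1.13 with NT, so the groups overlapped on that scale. Eif4ebp1, the form that most studies of mTOR follow, had 135, 148, 193 and 161 CPM with Mycn-gRNA3, 91.0, 132, 176 and 173 with Mycn-gRNA2, and 126, 123, 125 and 139.9 with NT. Its spread among the guide libraries, with Mycn-gRNA2 replicate 1 the lowest and Mycn-gRNA3 replicate 3 the highest of all libraries, left its fold change uncalled, at 0.23 (SE 0.146, edgeR adjusted p = 0.259). Eif4ebp2 stood at 94.4, 100.4, 107 and 102 CPM with Mycn-gRNA3, 110.4, 102, 99.3 and 101 with Mycn-gRNA2, and 92.6, 97.0, 85.3 and 94.4 with NT, 7 of 8 guide libraries above NT, at 0.15 (SE 0.0554, edgeR adjusted p = 0.0649). Without Mycn-gRNA2 replicate 1 both were called, Eif4ebp1 at 0.32 (edgeR adjusted p = 0.0234) and Eif4ebp2 at 0.13 (edgeR adjusted p = 0.0433). Eif4enif1, the transporter that takes eIF4E to the nucleus and to P-bodies, stood at 0.042 (SE 0.0463, edgeR adjusted p = 0.532). Read against the target, Eif4ebp2 had 53.5, 50.2, 52.7 and 53.4 with Mycn-gRNA3, 45.1, 51.6, 46.8 and 50.7 with Mycn-gRNA2, and 54.4, 60.3, 54.1 and 62.5 with NT, in reads per 100 reads of Eif4e. Each guide library was below each NT library in that ratio. For Eif4ebp1 the same ratio ran from 74.1 to 94.8 with Mycn-gRNA3, from 37.2 to 87.0 with Mycn-gRNA2 and from 73.9 to 92.6 with NT, and the groups overlapped.

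**Figure D3:**
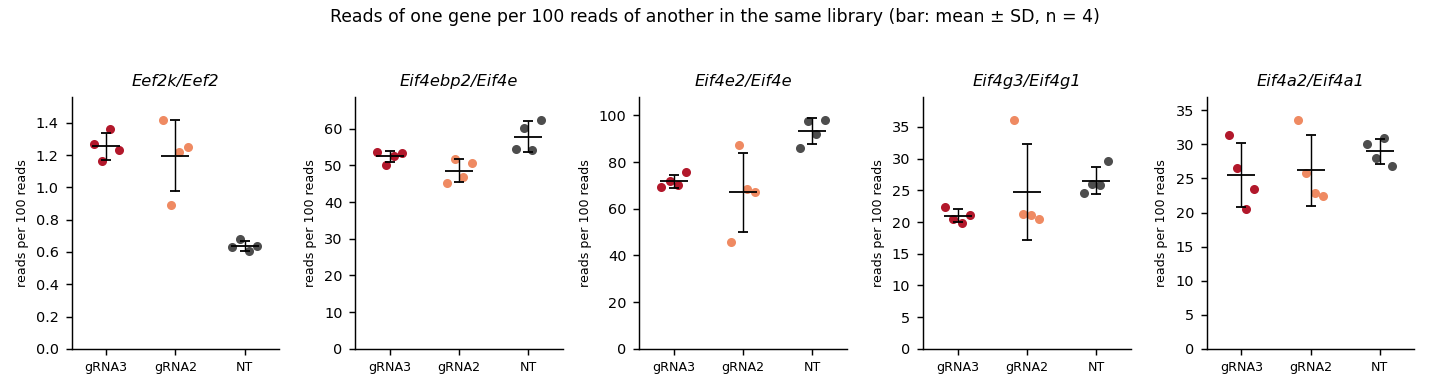
Reads of one gene per 100 reads of another within the same library (vertical axes from 0), 4 libraries a group from replicate 1 (left) to 4 (right), with the mean ± SD. Eef2k over Eef2 is higher, and Eif4ebp2 over Eif4e lower, in all 8 guide libraries than in any NT library; for Eif4g3 over Eif4g1 and Eif4a2 over Eif4a1 Mycn-gRNA2 replicate 1 is the highest library.

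The eIF4A, eIF4B and eIF4H group holds the helicase genes of eIF4F, which unwind the leader of the mRNA. With both guides it had the lowest median of the factor classes, −0.094 over 5 members. Eif4a2, the less abundant helicase, had 463, 425, 348 and 384 CPM with Mycn-gRNA3, 421, 418, 379 and 368 with Mycn-gRNA2, and 523, 497, 516 and 423 with NT. It was under the NT range in 6 of 8 guide libraries, and Mycn-gRNA3 replicates 1 and 2 lay within that range. The log2 fold change was −0.29 (SE 0.0799, edgeR adjusted p = 0.0155) with both guides, −0.27 (edgeR adjusted p = 0.0426) with Mycn-gRNA3 and −0.30 (edgeR adjusted p = 0.038) with Mycn-gRNA2, and it was not called without NT replicate 1 or without NT replicate 3. Per ERCC read Eif4a2 stood at 0.10 (SE 0.127, edgeR adjusted p = 0.475), with no call. Its exons share 5.02% of their bases with Rfc4 on the other strand. Eif4a1, the main helicase, had 1472, 1606, 1695 and 1639.7 CPM with Mycn-gRNA3, 1253, 1623, 1658 and 1639.7 with Mycn-gRNA2, and 1738, 1770.2, 1671 and 1576 with NT, overlapping between groups, at −0.10 (SE 0.0750, edgeR adjusted p = 0.335). The other members of the group, Eif4a3 of the exon junction complex and the helicase partners Eif4b and Eif4h, were not called, at 0.0073, −0.094 and 0.070.

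In eIF3, the large complex that bridges the ribosome and eIF4G, 3 of 12 tested subunits were called higher and none lower with both guides. Of all genes, 14.9% were called higher and 13% lower. With Mycn-gRNA2 alone 1 of the 12 was called higher, where 10.1% of all genes were. The subunits were close in level, from 90.5 RPKM (CPM per kilobase of exon) for Eif3i to 186 RPKM for Eif3a in the NT mean. Eif3l, an outer subunit of the complex, had 314, 337, 347 and 338 CPM with Mycn-gRNA3, 342, 327, 322 and 327 with Mycn-gRNA2, and 288, 289, 267 and 266 with NT. No guide library overlapped NT, and the log2 fold change was 0.26 (SE 0.0488, edgeR adjusted p = 0.00172), called with each guide. Eif3i, a core subunit conserved to yeast, had 117, 125, 136 and 127 CPM with Mycn-gRNA3, 89.1, 117, 116 and 126 with Mycn-gRNA2, and 106, 106, 99.2 and 91.2 with NT, 7 of 8 guide libraries above NT and Mycn-gRNA2 replicate 1 the lowest of all, at 0.24 (SE 0.0834, edgeR adjusted p = 0.0429). Eif3f, an outer subunit that mTOR is known to contact, had 266, 265, 286 and 261 CPM with Mycn-gRNA3, 230.4, 228, 247 and 271 with Mycn-gRNA2, and 231, 230.2, 229 and 223 with NT, with Mycn-gRNA2 replicates 1 and 2 inside the NT range, at 0.17 (SE 0.0548, edgeR adjusted p = 0.0347). Of 12 fits with a library left out, 10 lost the Eif3i call and 6 the Eif3f call, and with Mycn-gRNA2 alone neither was called. Eif3a, the largest subunit, stood at 923, 988, 999 and 996 CPM with Mycn-gRNA3, 1203, 1046, 1059 and 946 with Mycn-gRNA2, and 958, 964, 966 and 965 with NT and at 0.081 (SE 0.0597, edgeR adjusted p = 0.337). The other 8 tested subunits lay between −0.045 (Eif3e) and 0.14 (Eif3b). Per ERCC read all 12 were called higher with both guides, by 0.34 to 0.65, where 56.4% of all genes were called higher. Eif3j1 and Eif3j2 were listed with 0 reads in all 12 libraries; their exons share 2409 bases, 99.8% and 100% of their length, so reads of either would belong to both and nothing can be said of their level.

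For eIF2, which carries the initiator tRNA and is the target of the stress kinases, none of 5 members was called with both guides. Of all genes, 14.9% were called higher and 13% lower. Eif2s1, the alpha subunit that those kinases phosphorylate, had 171, 205, 215 and 207 CPM with Mycn-gRNA3, 133, 222, 212 and 197 with Mycn-gRNA2, and 217, 202, 203 and 178 with NT, with Mycn-gRNA2 replicate 1 the lowest of all, at −0.035 (SE 0.114, edgeR adjusted p = 0.848). The beta subunit gene Eif2s2 had 390.4, 465, 477 and 438 CPM with Mycn-gRNA3, 474, 489.6, 529 and 411 with Mycn-gRNA2, and 445, 448, 453 and 426 with NT, at 0.052 (SE 0.0700, edgeR adjusted p = 0.618). The X-linked gamma subunit gene Eif2s3x had 312, 337, 322 and 331 CPM with Mycn-gRNA3, 413, 384, 356 and 307 with Mycn-gRNA2, and 336, 349, 294 and 311 with NT, at 0.097 (SE 0.0740, edgeR adjusted p = 0.357). All 3 overlapped between groups. Their Y-linked relative Eif2s3y, which is no member, had 490, 543, 507 and 533 reads with Mycn-gRNA3, 628, 162, 491 and 517 with Mycn-gRNA2, and 1, 1, 0 and 1 with NT. With NT, Eif2s3x stood at 294 to 349 CPM, so hardly any of its reads were counted for Eif2s3y there. How reads that match several related genes, such as Eif1a and Eif1ax, were otherwise split or dropped is not stated in the sources used here. Relative to Eif2s1, Eif2s3x had 311 reads per 100 in Mycn-gRNA2 replicate 1 and 145 to 182 in the other libraries. Eif2a and Eif2d, which can deliver initiator tRNA without eIF2, stood at 0.12 (SE 0.0878, edgeR adjusted p = 0.348) and −0.17 (SE 0.0941, edgeR adjusted p = 0.199). Without Mycn-gRNA2 replicate 2, Eif2d was called lower, at −0.23 (edgeR adjusted p = 0.0303).

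The exchange factor eIF2B had 2 of 5 subunits called higher with both guides, where 14.9% of all genes were. All 5 stood above 0, as did 41 of the 56 tested members. With Mycn-gRNA2 alone 1 of the 5 was called higher, where 10.1% of all genes were, and 4 stood above 0. Eif2b1, the alpha subunit of its regulatory core, had 63.8, 69.9, 69.4 and 67.3 CPM with Mycn-gRNA3, 68.9, 63.4, 66.5 and 61.3 with Mycn-gRNA2, and 58.2, 56.4, 50.1 and 51.2 with NT. Every guide library exceeded every NT library, and the log2 fold change was 0.30 (SE 0.0592, edgeR adjusted p = 0.00232) with both guides, 0.33 (edgeR adjusted p = 0.0034) with Mycn-gRNA3 and 0.27 (edgeR adjusted p = 0.0147) with Mycn-gRNA2. Eif2b2, the beta subunit of that core, had 48.1, 47.9, 53.4 and 51.5 CPM with Mycn-gRNA3, 52.3, 46.4, 44.3 and 52.4 with Mycn-gRNA2, and 46.4, 42.4, 39.4 and 42.6 with NT, 6 of 8 guide libraries above NT, at 0.22 (SE 0.0668, edgeR adjusted p = 0.0273); it was lost in 5 of 12 fits with a library left out. Eif2b5, the catalytic epsilon subunit, had 111, 115, 113 and 111 CPM with Mycn-gRNA3, 84.4, 122, 109.8 and 108 with Mycn-gRNA2, and 104, 108, 106 and 94.1 with NT, at 0.080 (SE 0.0790, edgeR adjusted p = 0.481). Eif2b3 and Eif2b4 were not called, at 0.17 and 0.017. Summed over the 5 genes, eIF2B stood at 309 ± 7.86 with Mycn-gRNA3, 298 ± 16.5 with Mycn-gRNA2 and 273 ± 11.4 with NT (SD, n = 4 each), in CPM, 7 of 8 guide libraries above NT. The eIF3 sum, at 3794 ± 163 with Mycn-gRNA3, 3811 ± 82.0 with Mycn-gRNA2 and 3556 ± 97.0 with NT (SD, n = 4 each), in CPM, likewise exceeded NT in 7 of 8.

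None of the factors of start-codon choice and subunit joining was called with both guides by edgeR, while DESeq2 called Eif5b lower and Eif1b higher. Eif5b, the GTPase that joins the large subunit, had 297, 337, 331 and 334 CPM with Mycn-gRNA3, 442, 374, 388 and 311 with Mycn-gRNA2, and 377, 409, 415 and 429.7 with NT. Mycn-gRNA2 replicate 1 was above the NT range, replicate 3 within it, and the other 6 guide libraries were under it. It was called lower with Mycn-gRNA3, at −0.33 (SE 0.0905, edgeR adjusted p = 0.0159), but not with Mycn-gRNA2, at −0.11 (edgeR adjusted p = 0.471), nor with both, at −0.22 (edgeR adjusted p = 0.0511). Without Mycn-gRNA2 replicate 1 it was called lower with both, at −0.26 (edgeR adjusted p = 0.00335). Eif5b lies on chromosome 1, where the 540 genes with a mean log2 CPM over 3 had the lowest median of the autosomes, −0.13 with both guides against −0.12 to 0.032 on the other autosomes, and its exons share 15.9% of their bases with Rev1 on the other strand. Eif1 and Eif1b, which keep the scanning complex open, stood at 0.16 (SE 0.0778, edgeR adjusted p = 0.144) and 0.25 (SE 0.0911, edgeR adjusted p = 0.0557). In the fit without Mycn-gRNA2 replicate 1 Eif1b was called higher, at 0.22 (edgeR adjusted p = 0.0419). Eif1a and Eif1ax, which stabilise the scanning complex, stood at 0.083 and 0.099, Eif5, the activator of the eIF2 GTPase, at −0.069, and Eif1ad, a relative of eIF1A named for its shared domain, at 0.13.

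The remaining factors act on the ribosome itself. Eif5a, the hypusine-bearing factor that helps elongation through stalls, had 704, 812, 921 and 867 CPM with Mycn-gRNA3, 512, 871, 868 and 813 with Mycn-gRNA2, and 770.2, 763, 692 and 681 with NT. Eif6, which keeps large subunits from joining too early, had 80.0, 90.7, 94.1 and 92.0 CPM with Mycn-gRNA3, 44.8, 93.8, 86.8 and 88.8 with Mycn-gRNA2, and 84.0, 76.2, 84.6 and 67.9 with NT. In both, 6 guide libraries lay above NT while Mycn-gRNA2 replicate 1 was the lowest of all, and the log2 fold changes were 0.13 (SE 0.121, edgeR adjusted p = 0.452) and 0.098 (SE 0.150, edgeR adjusted p = 0.661). Without that library both were called higher, Eif5a at 0.21 (edgeR adjusted p = 0.0207) and Eif6 at 0.19 (edgeR adjusted p = 0.0237). Eif5a2, the scarce second form, stood at −0.099 (SE 0.0767, edgeR adjusted p = 0.362) and was called lower without that library, at −0.15 (edgeR adjusted p = 0.0348).

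One library thus recurs throughout. Mycn-gRNA2 replicate 1 was the lowest of the 12 libraries in 21 of the 56 tested members and the highest in 13, so that 60.7% of the members had an extreme there, against 48% of all genes tested; in the other libraries the share of members was 0% to 39.3%. Without it, 19 members were called higher and 5 lower with both guides, where 3206 and 2951 of 14631 genes were, and all 13 calls were kept. The new calls were Eef1g, Eif1, Eif1b, Eif2b3, Eif3b, Eif4ebp1, Eif4ebp2, Eif5a and Eif6 as higher and Eif5b and Eif5a2 as lower. In fits of the libraries numbered 1 and 2 alone, chosen after seeing the data, 0 members were called relative to the transcriptome with both guides, where 151 of all genes were called higher and 27 lower (edgeR; 4 members had an unadjusted p under 0.05). In libraries 3 and 4 alone 23 members were called higher and 5 lower, where 3324 of 14640 genes were called higher and 3061 lower. Leaving out NT replicate 4 left 5 members called higher, where 1627 of 14633 genes were. The calls of Eef1a2, Eef2k, Eif4e, Eif2b1, Eif3l and Eif4ebp3 with both guides together were kept whichever of the 12 libraries was left out. In the 6 libraries numbered 1 and 2, Eef2k stood at 0.76 (edgeR adjusted p = 0.0607), Eif4e at 0.31 (edgeR adjusted p = 0.284), Eif2b1 at 0.22 (edgeR adjusted p = 0.358), Eif3l at 0.20 (edgeR adjusted p = 0.336), Eef1a2 at 1.58 (edgeR adjusted p = 0.164) and Eif4ebp3 at −0.33 (edgeR adjusted p = 0.437), in the direction of the full data and with no call. In the 6 libraries numbered 3 and 4 all of these were called, with Eef2k at 1.19 (edgeR adjusted p = 2.01e-09) and Eif4e at 0.38 (edgeR adjusted p = 4.87e-05).

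**Figure D4:**
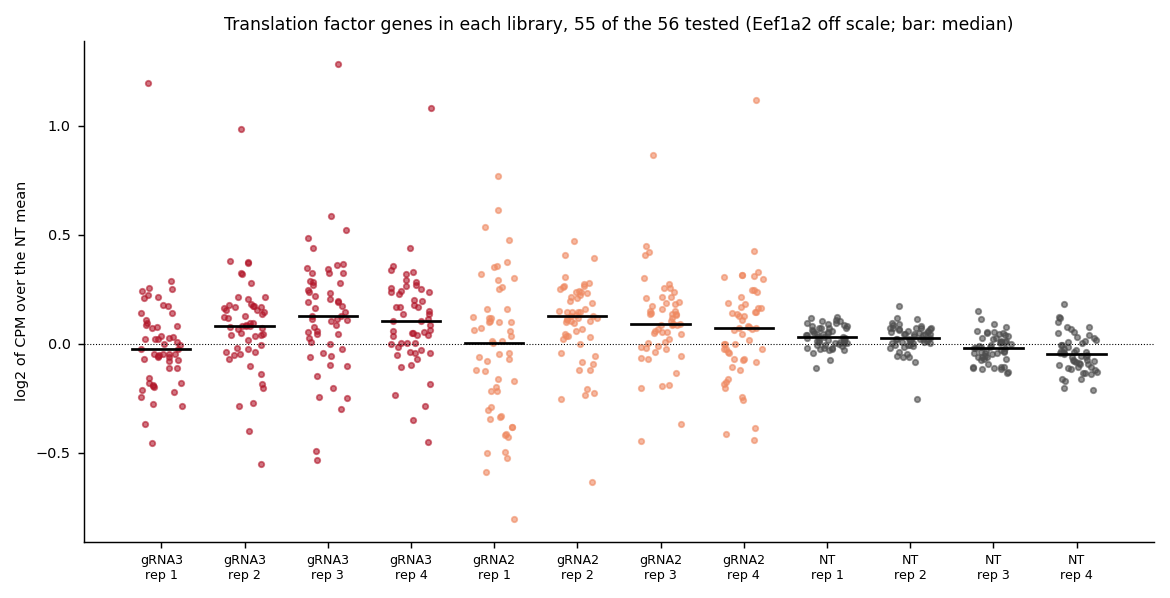
Log2 of the CPM in each library over the NT mean for 55 of the 56 tested translation factor genes (Eef1a2 is off the scale); each point is a gene, each black bar the median. The points of Mycn-gRNA2 replicate 1 spread the widest around a median near 0, and the NT libraries, drawn against their own mean, spread the least.

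With each guide singly, 10 members were called higher and 4 lower with Mycn-gRNA3 relative to the transcriptome, where 14.8% and 12.2% of all genes were, and 5 higher and 2 lower with Mycn-gRNA2, where 10.1% and 7.06% of all genes were. Both comparisons share the NT libraries. Without Mycn-gRNA2 replicate 1 the counts were 17 higher and 6 lower with Mycn-gRNA3 and 11 higher and 3 lower with Mycn-gRNA2. Of 14631 genes, 3209 were called higher and 2803 lower with Mycn-gRNA3 in that fit, and 2217 and 1897 with Mycn-gRNA2. Without NT replicate 4 the members' counts were 5 and 3 with Mycn-gRNA3 and 4 and 1 with Mycn-gRNA2. Of 14633 genes, 1623 and 1241 were called with Mycn-gRNA3 there, and 1092 and 668 with Mycn-gRNA2. The 5 called higher with each guide were Eef1a2, Eef2k, Eif4e, Eif2b1 and Eif3l, and the 2 called lower with each were Eif4a2 and Eif4ebp3. With Mycn-gRNA2 alone, each of these 2 lost its call in 7 of 12 fits with a library left out and when only the groups compared were fitted, and Eif4a2 lost it in 7 of 12 with Mycn-gRNA3. Among the 5 called higher, Eif4e lost its call in 3 of 12 such fits with Mycn-gRNA3 and Eif2b1 in 2 of 12 with Mycn-gRNA2. Eef1b2, Eef1d, Eif2b2, Eif3i and Eif3f were called higher, and Eif5b and Eif4g3 lower, with Mycn-gRNA3 and not with Mycn-gRNA2, but a call with 1 guide alone does not show a difference between guides. Tested directly, Mycn-gRNA3 against Mycn-gRNA2, no member was called on either scale, where 0% of all genes were called relative to the transcriptome and 0.0069% per ERCC read (edgeR; 5 members and 8 members had an unadjusted p under 0.05, and DESeq2 called none). The relative differences ran from −0.22 for Eif5b (SE 0.0905) to 0.33 for Eef2k (SE 0.124), with a median SE of 0.0876, and the lowest adjusted p was 0.549. Per ERCC read, 10 members were called between the guides once Mycn-gRNA2 replicate 4 was left out. In that fit 1983 of 14591 genes were called higher and 5 lower. Per ERCC read 50 members were called higher with Mycn-gRNA3, where 60.7% of all genes were, and 25 with Mycn-gRNA2, where 26.3% were; none was called lower, where 0.504% and 0.517% of all genes were (edgeR; at an unadjusted p under 0.05, 50 and 39 members differed, and DESeq2 called 50 and 28 higher). The Mycn-gRNA2 count turned on single libraries: it was 47 without Mycn-gRNA2 replicate 2, whose 65.6 endogenous reads per ERCC read were the lowest of the guide libraries, and 7 without NT replicate 4. In those fits 7849 of 14642 and 2231 of 14633 genes were called higher.

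Per ERCC read, 56.4% of all genes were called higher with both guides, and the counts by complex are read against that share. All members were called higher in eIF3 (12 of 12), eEF1 (6 of 6), eIF2B (5 of 5) and the eEF2 group (3 of 3), and 5 of 6 in the eIF1, eIF1A, eIF5 and eIF5B group and 4 of 5 among eIF2 and the related carriers. The fewest relative to their number were called in the eIF4A, eIF4B and eIF4H group (3 of 5), whose median log2 fold change of 0.30 was under the 0.39 of all genes, in the eIF4E and eIF4G group (4 of 6), with a median of 0.37, and among eIF5A and eIF6 (2 of 3). The 4E-BPs and their transporter had 3 of 4. The medians of eEF1, eIF2B and eIF3 were 0.58, 0.56 and 0.50. The summed reads of the eIF3 genes per 1000 ERCC reads were 340.1, 355, 376 and 315 with Mycn-gRNA3, 309, 248, 319 and 361 with Mycn-gRNA2, and 217, 268, 229.9 and 216 with NT. Those of the eIF4A, eIF4B and eIF4H genes were 308, 312, 317 and 273 with Mycn-gRNA3, 233, 215, 266 and 311 with Mycn-gRNA2, and 217, 267, 227 and 201 with NT. In both sums all Mycn-gRNA3 libraries were above NT; of the Mycn-gRNA2 libraries, replicate 2 was within the NT range for eIF3, and replicates 1, 2 and 3 were for the helicase group. Eef2k had 4.67, 3.95, 4.95 and 3.71 reads per 1000 ERCC reads with Mycn-gRNA3, 3.03, 1.79, 3.20 and 4.45 with Mycn-gRNA2, and 1.28, 1.77, 1.30 and 1.27 with NT. Eif4e had 16.8, 18.6, 19.4 and 15.7 reads per 1000 ERCC reads with Mycn-gRNA3, 20.3, 12.6, 17.4 and 19.1 with Mycn-gRNA2, and 10.2, 11.8, 10.4 and 9.47 with NT. Both genes were above NT in every guide library on this scale too. Of the 48 calls per ERCC read with both guides, 39 were kept in each of the 12 fits with a library left out.

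**Figure D5:**
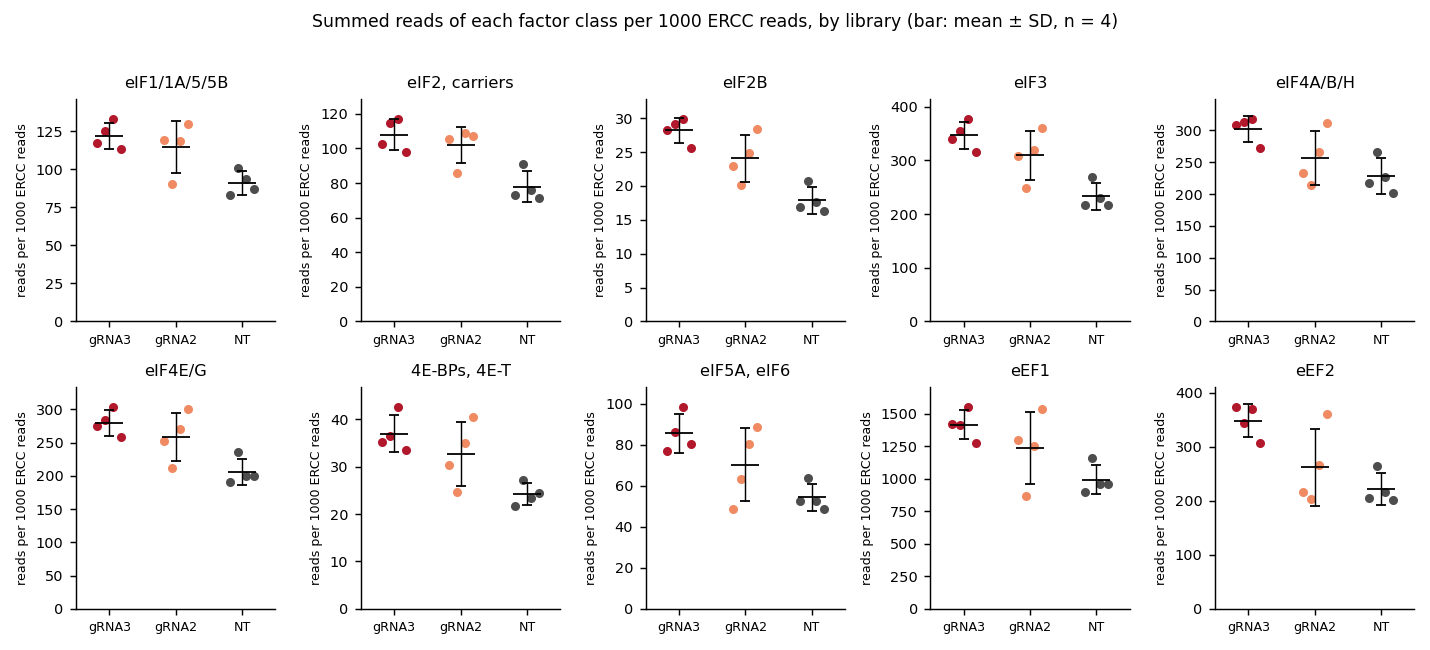
Reads of each factor class per 1000 ERCC reads (vertical axes from 0), 4 libraries a group from replicate 1 (left) to 4 (right), with the mean ± SD; Eif1ad is left out as a single gene. The Mycn-gRNA3 libraries are above the NT libraries in all 10 classes, whereas Mycn-gRNA2 replicate 2 is within or below the NT range in all 10.

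TOP mRNAs are the transcripts through which mTOR is best known to act on this family, in human and mouse cells. Of 9 members counted as such (Eef1a1, Eef1b2, Eef1d, Eef1g, Eef2, Eif3e, Eif3f, Eif3h and Eif4b), 3 were called higher and none lower relative to the transcriptome, where 14.9% and 13% of all genes were, Eef1d at 0.34, Eef1b2 at 0.27 and Eif3f at 0.17. Leaving out 1 library ended the Eef1d call in 2 of 12 fits, the Eef1b2 call in 2 and the Eif3f call in 6. The median of the 9 was 0.11, against 0.080 for the other 47 tested members and −0.0027 for all genes. That order was not the same with each guide. Tested directly, none of the 9 was called between the guides on either scale. Of all genes, 0% were called there relative to the transcriptome and 0.0069% per ERCC read. With Mycn-gRNA3 3 of the 9 were called higher, where 14.8% of all genes were. The median of the 9 was 0.16, against 0.069 for the other members. With Mycn-gRNA2 0 of the 9 were called, where 10.1% of all genes were called higher and 7.06% lower. The median of the 9, 0.028, was under the 0.081 of the other members. Without Mycn-gRNA2 replicate 1, Eef1b2 and Eef1d were called higher with Mycn-gRNA2, where 2217 of 14631 genes were. Per ERCC read all 9 were called higher with both guides, where 56.4% of all genes were. The median of the 9 was 0.50, against 0.47 in the others and 0.39 over all genes. Here too the median of the 9 was above that of the others with Mycn-gRNA3 (0.64 against 0.55) and under it with Mycn-gRNA2 (0.34 against 0.38).

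Of 32 regulators and partner genes of the factors, all of them tested, 2 were called higher and 2 lower relative to the transcriptome, where 14.9% and 13% of all genes were, and the median of their log2 fold changes was −0.013. Larp1, which binds and represses TOP mRNAs when mTOR is inhibited, was called higher at 0.19 (SE 0.0531, edgeR adjusted p = 0.0173), and Eefsec, the elongation factor for selenocysteine, at 0.20 (SE 0.0644, edgeR adjusted p = 0.0307). Pdcd4, an inhibitor of eIF4A, had 50.5, 45.5, 39.7 and 44.2 CPM with Mycn-gRNA3, 54.8, 46.4, 46.8 and 42.4 with Mycn-gRNA2, and 58.2, 63.0, 63.5 and 60.5 with NT, every guide library below every NT library, and was called lower at −0.41 (SE 0.0747, edgeR adjusted p = 0.00137). Tpt1, itself the product of a TOP mRNA, was called lower at −0.17 (SE 0.0458, edgeR adjusted p = 0.0128). The eIF2 kinases, the phosphatase adaptors Ppp1r15a and Ppp1r15b, the target genes Atf4 and Ddit3, and the mTOR genes Mtor, Rptor, Rps6kb1 and Rps6kb2 were not called. Per ERCC read 24 of the 32 were called higher, where 56.4% of all genes were, and none lower, with Pdcd4 at −0.013 (SE 0.135, edgeR adjusted p = 0.936).

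Levels within the family were far from equal. Scaled by length, in the NT mean, Eef1a1 stood at 7385 RPKM and Eef2 at 1081 RPKM, above the most abundant initiation factor, Eif4a1, at 898 RPKM, and Eef1g at 681 RPKM. Eif5a followed at 360 RPKM, Eef1b2 at 351 RPKM and Eif1 at 244 RPKM. The eIF2B subunits lay between 8.68 RPKM (Eif2b3) and 40.4 RPKM (Eif2b5), under the eIF2 subunits that they serve, while Eef2k stood at 3.18 RPKM, Eif4e3 at 0.958 RPKM and Eef1a2 at 0.0693 RPKM. The order of these levels joins genes whose copies elsewhere in the genome can take or lose reads, as is known for Eef1a1, so it is a description of the counts.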

How the data were processed

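RNA was sequenced from 12 libraries of 200000 cells each with ERCC RNAs added (Mix1, polyA-selected directional libraries, per the labels' protocols). The authors deposited raw read counts per gene, with each gene's exon length, and a table of log2 counts scaled by cell number (12042 genes, 55 members). The submitters' processing notes name Trim Galore 0.4.0, featureCounts with Subread 1.5.0, edgeR 3.32.1 and the build mm10; no source used here gives the aligner, the strand setting or the handling of reads with several matches. From the deposited counts, edgeR 4.0.16 in R 4.3.3 was run (filterByExpr, robust quasi-likelihood F test, 1 term per group over 12 libraries, Benjamini-Hochberg adjustment over 14497 genes, threshold 0.05), once with TMM factors over the endogenous genes and once with the ERCC total as library size; "both guides" is the mean of the 2 guide terms. RPKM were computed from the counts and exon lengths. The tests were checked on simulated counts. Same-numbered libraries of the guides deviated together (correlation 0.211 to 0.498 in 4 pairs), so replicate numbers pair the guides, from the data and not the labels. Counts of libraries of one group differed by a chi-square of 8.63 to 72.2 per degree of freedom over 18 pairs. That is more than read sampling from 1 library gives. It cannot tell separate cultures from separate preparations of 1 culture. Alternatives used DESeq2 1.42.0, RLE factors, no filter, ERCC TMM factors, a replicate block, the groups compared only, limma 3.58.1 on the deposited log2 values and each library left out; fits of replicates 1 and 2 alone and 3 and 4 alone, and the Eef2k to Eef2 ratio, were added after seeing the data. The members, factor classes and lists were chosen with earlier results of these data known. Named with values are the members called with both guides or with 1 guide relative to the transcriptome, and 16 anchor genes whatever their values; partners are named where called. Depth of 17248564 to 33819855 reads makes counting error small beside the spread between libraries except for Eef1a2, Eif4e1b and Eif4e3.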

Additional observations from a re-analysis of the deposited data

Results flagged for a closer look

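For 27 members the lowest and highest of the 4 libraries in each group were looked at, 81 groups in all, and in 8 of them a library stood apart from the other 3 by more than Dixon's 95% critical value; chance gives such a flag in about 1 of 20 groups. Of the 8, 5 were Mycn-gRNA2 replicate 1. In that library Eif4g3 stood at 278.9 CPM against 215 to 225 CPM in the other Mycn-gRNA2 libraries. Eif4a1 stood at 1253 CPM there against 1623 to 1658 CPM, and Eif4g1 at 771 CPM against 1014 to 1063 CPM. Eif5a stood at 512 CPM against 813 to 871 CPM, and Eif6 at 44.8 CPM against 86.8 to 93.8 CPM. In Mycn-gRNA3 replicate 1, Eif5b stood at 297 CPM against 331 to 337 CPM in the other Mycn-gRNA3 libraries, and Eif3a at 923 CPM against 988 to 999 CPM. In NT replicate 4, Eif4ebp1 stood at 139.9 CPM against 123 to 126 CPM in the other NT libraries. The cause of these values was not tested.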

How the results depend on the processing

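Under DESeq2, RLE factors, no filter on low counts and the replicate block, 9 to 11 members were called higher and 2 to 4 lower with both guides relative to the transcriptome, against 10 and 3, and the calls of Eef1a2, Eef2k, Eif4e, Eif2b1, Eif3l and Eif4ebp3 were kept; no filter lost Eif4g3 and Eif3f. The choice of libraries moved the counts more. Leaving out 1 library gave 5 to 19 higher and 1 to 5 lower with both guides, 5 to 17 and 2 to 6 with Mycn-gRNA3, and 4 to 11 and 0 to 3 with Mycn-gRNA2. Per ERCC read it gave 39 to 52, 43 to 51 and 7 to 47 higher, and 0 lower with both guides. The counts over all genes moved as well. With both guides they ran from 1627 to 3206 higher and 1277 to 2951 lower relative to the transcriptome, and from 5479 to 10133 higher per ERCC read. Mycn-gRNA3 against Mycn-gRNA2 gave 0 calls relative to the transcriptome and 0 to 10 per ERCC read, the 10 without Mycn-gRNA2 replicate 4. There 1983 of 14591 genes were called higher and 5 lower. Replicates 1 and 2 alone called 0 higher and 0 lower with both guides, 1 and 0 with Mycn-gRNA3 and 0 and 0 with Mycn-gRNA2. Per ERCC read they called 2 higher with both guides, 10 with Mycn-gRNA3 and 0 with Mycn-gRNA2. Of 14496 genes, 1101, 2784 and 404 were called higher in these comparisons. On that scale 2 members differed between the guides, where 517 genes were called higher and 3 lower. Replicates 3 and 4 alone called 23 higher and 5 lower with both guides, 25 higher with Mycn-gRNA3, and 17 higher and 4 lower with Mycn-gRNA2. Of 14640 genes, 3139 were called higher with Mycn-gRNA3 there, and 2587 higher and 2243 lower with Mycn-gRNA2. Per ERCC read they called 48 members higher with Mycn-gRNA2, where 8080 genes were. Fitting the groups compared only called 19 higher with Mycn-gRNA3, where 3218 of 14298 genes were. It called 0 lower with Mycn-gRNA2, where 578 of 14155 genes were. The cause of these moves was not tested. Same-numbered libraries deviated together (correlation over 0.1) in all 4 pairs between the guides, whose numbers therefore pair. Of the 8 pairs of a guide with NT, 4 were over 0.1, and the correlations ran from 0.033 to 0.37. Whether the numbers also pair with NT is not settled by that measure. In all, 14 of 24 matched best with their own number, a hint of pairing from the data. With the replicate block 11 members were called higher and 3 lower with both guides relative to the transcriptome. Of 14497 genes, 2325 and 2131 were. Per ERCC read it called 16 rather than 25 members higher with Mycn-gRNA2, where 3129 rather than 3817 of all genes were. Between the guides 0 members differed on either scale, as without the block. Over the 16 alternatives of library, filter and scaling, Eif2s1 ran from −0.088 to 0.035, Eef1a1 from −0.036 to 0.016 and Eef2 from −0.0048 to 0.080 (log2, relative), none of them called with both guides. In replicates 1 and 2 alone and replicates 3 and 4 alone, Eif2s1 stood at −0.19 and 0.13, Eef1a1 at −0.072 and 0.046 and Eef2 at −0.081 and 0.16. With Mycn-gRNA3 Eef2 was called higher in 3 alternatives (the groups compared only, without Mycn-gRNA2 replicate 1, replicates 3 and 4 alone). Eif4ebp3 per ERCC read ran from −0.072 to 0.076. Depth limits Eef1a2, at 2 to 21 reads a library.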
